A study of Mus musculus with 6 samples.

Results

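Axon guidance genes encode the cues and receptors that steer growing axons: the ephrins with their Eph receptors, the semaphorins with plexins and neuropilins, the netrins with Dcc and the Unc5 receptors, and the slits with the robo receptors. They were picked out by gene symbol, and 69 of the 24391 genes in the count table matched, 35 of them ligands and 34 receptors. This set was chosen with earlier results of these data known. Its comparison with all tested genes was therefore not made blind to the data. The cells were Neuro2a, an established mouse neuroblastoma line that can be made to extend neurites in culture. Before harvest both groups spent 18 hours in D-MEM(-SG), a form of culture medium that the labels do not explain further, with 10% fetal bovine serum. To one group 5 mM D-serine was added and the controls received vehicle only (n = 3 libraries per group). Poly(A) RNA was sequenced as mRNA libraries. Nothing in the labels says whether the 3 libraries of a group came from separate cultures, so the p-values measure only the spread between these libraries, which may be technical. The cells are 1 tumour line, and in RNA from whole cultures fewer cells of a type and less RNA per cell cannot be told apart.

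Ephrins are ligands held in the cell membrane, the A class by a lipid anchor and the B class by a transmembrane segment, and they bind Eph receptor tyrosine kinases on neighbouring cells, with signals passing in both directions. Semaphorins bind plexins, which act on small GTPases inside the cell. The secreted class 3 semaphorins mostly need a neuropilin as co-receptor. Netrins attract axons through Dcc and repel them through Unc5 receptors, and slits repel axons through robo receptors. Neuroblasts of the sympathetic lineage, from which neuroblastoma arises, meet several of these cues as they migrate and extend axons.

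The libraries held 32518483 to 40024265 counts. Neuroblast markers were abundant, with a summed level of 2343 to 2485 CPM (counts scaled to a common library total by TMM, the trimmed mean of M-values) in the controls and 2479 to 2668 CPM with D-serine. Of these 18 markers, 17 were tested and 1 rose, the neuronal tubulin gene Tubb3. Markers of other cell types were low in both groups. The 8 Schwann and glia markers summed to 32.7 to 35.7 CPM in the controls and 30.9 to 35.3 CPM with D-serine, with Aqp4 at 0. The 8 fibroblast and mesenchyme markers summed to 25.2 to 29.4 and 19.0 to 25.3 CPM, with Lum, Thy1 and Twist1 at 0 and Pdgfrb lower after D-serine. The 6 endothelial markers summed to 3.99 to 4.59 and 3.59 to 4.76 CPM, with Kdr and Emcn at 0. The 7 immune markers summed to 1.05 to 2.20 and 1.02 to 1.55 CPM, with Cd3e among those at 0. The part of the fibroblast markers in the results was not tested.

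Promoter windows of 4 genes whose transcripts differed between the groups are shown, the 2 neuropilins and Plxna3, which fell, and Efnb2, which rose. The sequences are RefSeq windows of the GRCm38.p6 build, from 250 bases before to 50 after the start of the gene, on the strand of the gene, with capitals marking the GC box (GGGCGG on either strand), a motif bound by Sp-family factors. They lie at chr8:128358823-128359122 (plus strand, Nrp1), chr1:62703067-62703366 (plus strand, Nrp2), chrX:74328816-74329115 (plus strand, Plxna3) and chr8:8661193-8661492 (minus strand, Efnb2).
Nrp1: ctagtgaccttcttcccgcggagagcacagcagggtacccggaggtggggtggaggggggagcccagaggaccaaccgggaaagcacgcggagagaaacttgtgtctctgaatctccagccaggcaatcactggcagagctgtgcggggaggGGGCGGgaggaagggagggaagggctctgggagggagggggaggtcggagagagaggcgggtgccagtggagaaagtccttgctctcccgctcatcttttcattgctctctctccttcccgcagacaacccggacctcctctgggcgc
Nrp2: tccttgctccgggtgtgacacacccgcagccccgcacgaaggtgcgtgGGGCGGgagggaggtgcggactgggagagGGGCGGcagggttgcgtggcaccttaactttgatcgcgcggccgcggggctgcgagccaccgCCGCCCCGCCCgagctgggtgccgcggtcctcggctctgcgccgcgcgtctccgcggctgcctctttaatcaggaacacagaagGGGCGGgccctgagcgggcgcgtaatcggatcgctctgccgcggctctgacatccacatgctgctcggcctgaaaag
Plxna3: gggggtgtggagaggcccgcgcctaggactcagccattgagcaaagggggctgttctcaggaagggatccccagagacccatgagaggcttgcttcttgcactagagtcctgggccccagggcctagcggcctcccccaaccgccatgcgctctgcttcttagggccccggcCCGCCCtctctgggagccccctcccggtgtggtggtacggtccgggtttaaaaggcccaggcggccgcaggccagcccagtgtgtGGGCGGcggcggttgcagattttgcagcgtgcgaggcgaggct
Efnb2: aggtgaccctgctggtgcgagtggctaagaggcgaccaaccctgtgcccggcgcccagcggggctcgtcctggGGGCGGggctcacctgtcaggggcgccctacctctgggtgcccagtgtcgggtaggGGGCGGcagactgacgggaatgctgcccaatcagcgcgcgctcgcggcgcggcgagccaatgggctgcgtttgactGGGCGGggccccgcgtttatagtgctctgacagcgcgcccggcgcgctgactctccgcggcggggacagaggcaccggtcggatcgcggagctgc
The Nrp1 window held 1 GC box and 14 CpG dinucleotides. The Nrp2 window held 5 GC boxes, of which a pair overlap, and 37 CpG dinucleotides. The Plxna3 window held 2 GC boxes and 18 CpG dinucleotides. The Efnb2 window held 3 GC boxes, 35 CpG dinucleotides, 2 CCAAT boxes (CCAAT) and 1 match to the TATA box (TATAAA). The TATA match lay on the strand opposite to the gene and reads TTTATA in the printed sequence. The 3 others had no CCAAT box or TATA box on either strand. None of the 4 held an E-box (CACGTG) or the core of the amino acid response element (TGATGNAA). Of 32851 windows of this length, on both strands, 35.7% held a GC box, 37.4% a CCAAT box, 13.6% a TATA box, 7.15% an E-box and 3.97% the amino acid response element core, and the median window held 7 CpG dinucleotides. These are matches of letters only. A window was found for 59 of the 69 genes.

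Neuro2a cells held abundant transcripts of some guidance genes and next to none of several that act with them. Levels of different genes are given as CPM per kilobase of exon (CPM per kb), in the controls unless stated. The most abundant were Unc5b (43.8 CPM per kb), Sema4d (38.0), Plxnb2 (32.3), Nrp1 (29.2) and Nrp2 (25.3). Of the 69 genes, 43 had enough counts to be tested, 18 had only traces and 8 had no count in any library.

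**Figure D1:**
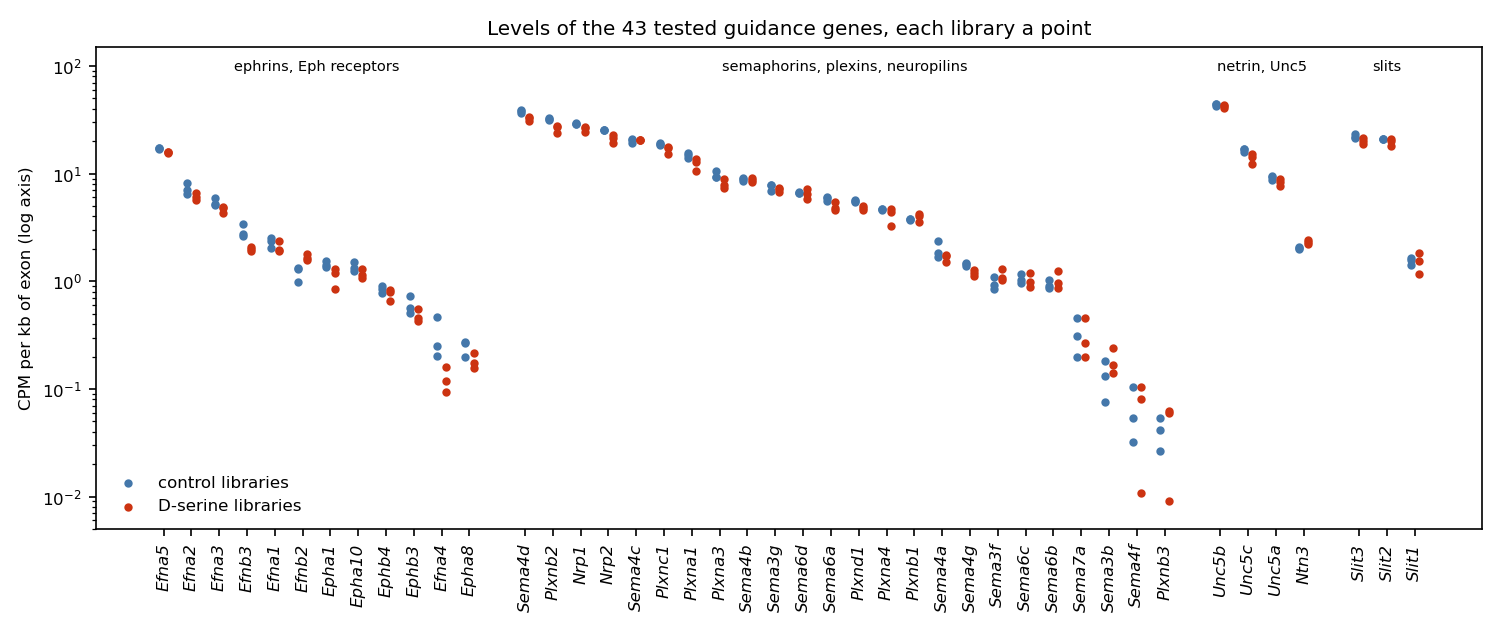
Level of each of the 43 tested guidance genes in CPM per kb of exon (log axis), grouped by system, with 3 control libraries in blue and 3 D-serine libraries in red. Sema4d, Sema4c, Plxnb2, Nrp1, Nrp2, Unc5b, Slit2 and Slit3 sit above 18 CPM per kb in every library, and the Eph receptors sit below 1.6.

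In the netrin system the receptors were more abundant than the ligands. Unc5b, Unc5c and Unc5a, receptors for repulsion by netrins, stood at 43.8, 16.6 and 9.22 CPM per kb. Dcc, the receptor for attraction, had no count. Ntn1, the classic netrin of the floor plate, had 40 counts over the 6 libraries together, and Ntn3 was the 1 netrin that could be tested. In the slit system the ligands were the more abundant. Slit3 and Slit2 stood at 22.2 and 21.0 CPM per kb, while Robo1 had 4 counts, Robo2 16, Robo3 53 and Robo4 none over all 6 libraries. In the ephrin system the ligand Efna5 stood at 17.2 CPM per kb, and 5 of the 14 Eph receptors were tested, led by Epha1 and Epha10. In a library, 3 counts amount to 0.0745 to 0.0930 CPM, which a count of 0 allows by counting error alone.

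The 26 genes that were not tested had at most 15 counts in any library. Those with no count were Epha4, Epha6, Ephb6, Efnb1, Plxna2, Sema3e, Dcc and Robo4. The other untested genes, besides those given above, had totals over 6 libraries of 32 for Epha7, 24 for Ntn5, 12 for Sema3d, 9 for Sema5b, 8 each for Epha2 and Unc5d, 5 for Ephb2, 4 for Sema3a, 2 each for Ntn4, Sema5a, Epha3, Sema3c and Ephb1, and 1 for Epha5. Sema3a, Sema3c, Sema3d and Sema3e, secreted ligands of class 3, were thus at or near 0, while the co-receptors Nrp1 and Nrp2 were among the most abundant guidance transcripts.

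After D-serine 10 of the 43 tested genes changed, 9 lower and 1 higher, by edgeR's quasi-likelihood test with Benjamini-Hochberg adjustment over all 13366 tested genes (adjusted p under 0.05). That is 23.3% of the tested guidance genes, beside 9.74% of all tested genes, where 4.90% were lower and 4.84% higher. The fold was negative in 34 of 43 (79.1%), beside 48.5% of all tested genes, and the median log2 fold change was -0.15, beside 0.0053. In 20 of 43 the groups did not overlap, beside 32.9% of all tested genes. The count differed with the libraries in the fit. With D-serine replicate 1 left out it was 1 higher and 10 lower, beside 12.5% of all tested genes called. Omitting replicate 2 of the treated group gave 0 and 11 (11.6% of all tested genes), and omitting its replicate 3 gave 0 and 2 (2.15%). Among the controls, the fit lacking replicate 1 called 0 and 1 (0.921%) and that lacking replicate 3 called 0 and 4 (3.34%). The fit lacking control replicate 2 called none (0.501%). In it 17 of 44 had an unadjusted p under 0.05 by edgeR, the 1 tool run on 5 libraries. With all 6 libraries 18 of the 43 had an unadjusted p under 0.05 by edgeR, and so had 3769 of all 13366 tested genes. Over all genes, unadjusted counts were not made for the other fits, so the members' counts there have no background beside them.

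Guidance genes are long and D-serine replicate 1 stood apart in long genes. The median exonic length of the tested members was 4713 bases, beside 2834.5 for all tested genes. The slope of a library's deviation on log2 length was -0.0717 in D-serine replicate 1 and -0.0040 to 0.0356 in the other 5 libraries. D-serine replicate 1 was the lowest of the 6 libraries in 22 of the 43 (51.2%), beside 26.2% of all tested genes. Among tested genes of at least 4000 bases, 403 of 3944 were lower (10.2%), and of the 30 guidance genes in that range 8 were lower and 1 higher. The median log2 fold change was -0.07 in all genes of that length and -0.15 in the guidance genes.

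Each library's trend on length was therefore also removed before the fit, in 2 forms. In the form as first run, 1 member was higher and 10 lower, while 15.8% of all tested genes were called, 701 higher (5.24%) and 1417 lower (10.6%). In the form centred so that the scaling between libraries stayed as it was, which was chosen after the first was seen, 2 were higher and 7 lower, while 15.3% of all tested genes were called, 1023 higher (7.65%) and 1020 lower (7.63%). Without the removal the split over all genes was 647 higher and 655 lower, and it was 914 and 412 with upper quartile scaling and 944 and 412 with library totals. With those 2 scalings, 1 member was higher and 7 or 6 were lower, beside 9.92% and 10.1% of all tested genes called. DESeq2 and limma-voom each called 1 member higher and 10 lower, beside 12.3% and 9.43% of all tested genes. Both forms are given below for each guidance gene whose libraries are given, as length-removed and centred. The median log2 fold change of the tested members was -0.12 length-removed, beside -0.0223 over all tested genes. Centred it was -0.09, beside 0.0040.

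**Figure D2:**
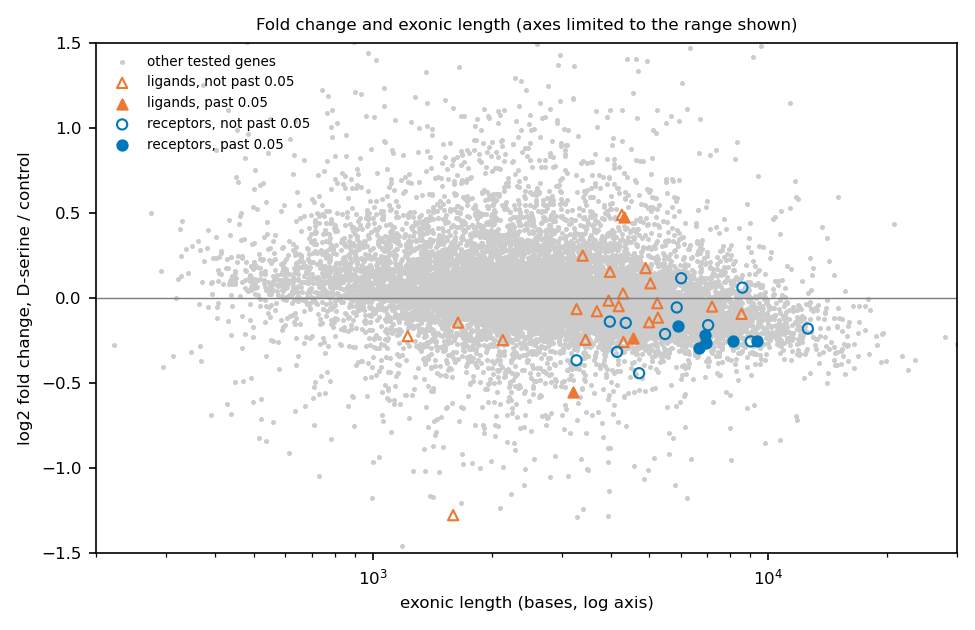
Log2 fold change of D-serine over control against exonic length in bases (log axis) for all tested genes in grey, with guidance ligands as triangles and receptors as circles, filled where the adjusted p was under 0.05; the axes are limited to the range shown, which leaves out some of the grey genes. The 1 filled point above 0 is Efnb2, and 8 of the 9 filled points below 0 are genes of at least 4000 bases.

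Among the receptors, 6 of the 18 tested fell (33.3%) and none rose (0 by DESeq2 and limma-voom too). Over all tested genes 4.90% were lower, and 10.2% of those of at least 4000 bases. The tested receptors had a median exonic length of 6341 bases. D-serine replicate 1 was the lowest library in 14 of the 18 (77.8%), beside 26.2% of all tested genes. Plexins and neuropilins gave 5 of the 6 that fell, and Unc5c was the sixth. The 10 tested plexins and neuropilins had a median length of 6993.5 bases, and 9 of them were lowest in D-serine replicate 1. Of 9 plexins 8 were tested, and 3 fell: Plxnb2, Plxna3 and Plxnd1. The median log2 fold change of the 8 was -0.20, and 7 of the 8 had their lowest level in D-serine replicate 1.

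Plxnb2, a receptor for class 4 semaphorins (chromosome 15, 88985976 to 89011218, minus strand, in the coordinates of the deposited table), stood at 221, 211 and 213 CPM in the controls and 160, 182 and 184 CPM with D-serine. All 3 D-serine libraries lay below all 3 controls. Its log2 fold change was -0.30 (SE 0.0539, edgeR adjusted p = 0.0106), -0.24 length-removed and -0.21 centred, with adjusted p = 2.4e-04 and 5.7e-04. The call was lost without control replicate 1 (adjusted p = 0.0557 by edgeR) or control replicate 2 (0.0536).

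Plxna3, which with neuropilins forms receptors for class 3 semaphorins (chromosome X, 71574405 to 71590028, plus strand), stood at 72.8, 64.6 and 64.3 CPM in the controls and 51.1, 62.3 and 54.6 CPM with D-serine. The groups did not overlap, and D-serine replicate 2 came close to the lower controls. On the log2 scale the fold was -0.26 (SE 0.0731, edgeR adjusted p = 0.0395), -0.20 length-removed (0.0151) and -0.17 centred (0.0386). The call was lost without any 1 of the 3 controls (adjusted p = 0.163, 0.0918 and 0.0670 by edgeR, for replicates 1 to 3) or D-serine replicate 3 (0.117). Library totals and the replicate number as a block took it away too. It was kept in 14 of 21 alternative fits.

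Plxnd1, known as a receptor for Sema3e (chromosome 6, 115904829 to 115945023, minus strand), stood at 37.7, 39.1 and 38.2 CPM in the controls and 31.7, 34.2 and 32.8 CPM with D-serine. The groups were well apart, with no overlap. The log2 fold change was -0.22 (SE 0.0567, edgeR adjusted p = 0.0309), but -0.15 length-removed (0.0744) and -0.13 centred (0.127), neither past the threshold. It was lost too without any 1 control (adjusted p = 0.0846, 0.126 and 0.0804 by edgeR) or D-serine replicate 3 (0.0917), and with the replicate number as a block. It was kept in 11 of 21 alternative fits.

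Plxna1, another class 3 co-receptor, missed the threshold narrowly. Its libraries stood at 141, 135 and 126 CPM in the controls and 96.4, 124 and 116 CPM with D-serine, without overlap but with control replicate 3 next to D-serine replicate 2. Its log2 fold change was -0.26 (SE 0.0760, edgeR adjusted p = 0.0510). It was called in 12 of 21 alternative fits, among them length-removed (-0.16, edgeR adjusted p = 0.0107), centred (-0.13, 0.0344), DESeq2 and limma-voom. Upper quartile scaling, library totals, a mean of at least 50 counts and the replicate number as a block did not call it. Nor was it called without any 1 control, without D-serine replicate 3, or centred without D-serine replicate 1. Plxnb1, a receptor for Sema4d, stood at 32.8, 32.1 and 32.6 CPM in the controls and 30.6, 36.2 and 34.9 CPM with D-serine, so that D-serine replicate 1 lay below the controls and the 2 others above. Its log2 fold change was 0.06 (SE 0.0680, edgeR adjusted p = 0.596), 0.15 length-removed (0.0754) and 0.18 centred (0.0349). The other tested plexins, Plxnc1, Plxna4 and Plxnb3, had log2 fold changes of -0.16, -0.18 and 0.12 and did not pass the test.

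Both neuropilins fell. Nrp2, a co-receptor of class 3 semaphorins (chromosome 1, 62749891 to 62865266, plus strand), stood at 206, 205 and 204 CPM in the controls and 158, 184 and 175 CPM with D-serine. The controls lay within 2 CPM of each other and all 3 D-serine libraries lay below them, D-serine replicate 1 farthest. On the log2 scale the fold was -0.25 (SE 0.0535, edgeR adjusted p = 0.0160), -0.17 length-removed (0.00395) and -0.14 centred (0.00755). It was lost without control replicate 1 (0.0682 by edgeR, adjusted), control replicate 2 (0.0719) or D-serine replicate 3 (0.0517), and with the replicate number as a block.

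Nrp1, the co-receptor of Sema3a and of vascular endothelial growth factor (chromosome 8, 130882973 to 131029375, plus strand), stood at 172, 175 and 171 CPM in the controls and 144, 160 and 157 CPM with D-serine. Again the groups did not overlap and D-serine replicate 1 was lowest. The log2 fold change was -0.17 (SE 0.0477, edgeR adjusted p = 0.0449), -0.12 length-removed (0.0268) and -0.09 centred (0.0600, not past the threshold). It was lost without any 1 control (adjusted p = 0.120, 0.159 and 0.0971 by edgeR) or D-serine replicate 3 (0.0900). Upper quartile scaling, library totals and the replicate number as a block took it away too. It was kept in 10 of 21 alternative fits. The gene shares 80 exonic bases with Mir1903 on the same strand.

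**Figure D3:**
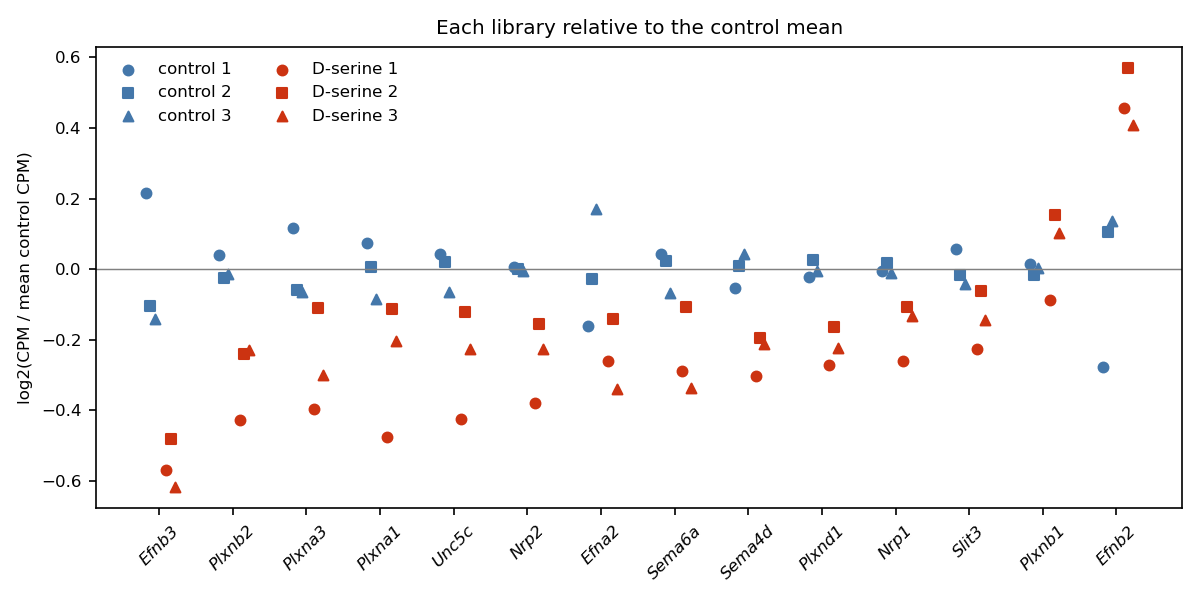
Level of each library relative to the mean of the controls, as log2(CPM / mean control CPM), for the 14 guidance genes past the threshold with the counts as scaled or with the length trend removed in either form; blue marks are control and red marks D-serine libraries, with circle, square and triangle for replicates 1 to 3. D-serine replicate 1 is the lowest mark for 10 of the 14, and the red marks for Efnb2 sit above all blue marks.

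Of the semaphorins 14 of 20 were tested, and 2 fell (14.3%, beside 4.90% of all tested genes), both membrane-bound. Sema4d, ligand of Plxnb1 and Plxnb2 (chromosome 13, 51796617 to 51889116, minus strand), stood at 167, 174 and 178 CPM in the controls and 140, 151 and 149 CPM with D-serine. The groups did not overlap. Its log2 fold change was -0.24 (SE 0.0464, edgeR adjusted p = 0.0127), -0.23 length-removed (7.2e-04) and -0.20 centred (0.00139). Among all members it kept its call most often, in 20 of 21 alternatives, and it lost it without control replicate 2 (adjusted p = 0.0688 by edgeR). Sema4d and its receptor Plxnb2 were thus both lower.

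Sema6a, a membrane-bound ligand of the A-class plexins Plxna2 and Plxna4, stood at 41.6, 41.0 and 38.5 CPM in the controls and 33.0, 37.5 and 32.0 CPM with D-serine. The groups did not overlap, though control replicate 3 and D-serine replicate 2 were 1 CPM apart. On the log2 scale the fold was -0.24 (SE 0.0680, edgeR adjusted p = 0.0420), but -0.17 length-removed (0.0582) and -0.15 centred (0.107), neither past the threshold. It was lost without any 1 control (adjusted p = 0.144, 0.142 and 0.0663 by edgeR) or D-serine replicate 3 (0.147). Upper quartile scaling, library totals and the replicate number as a block took it away too. It was kept in 9 of 21 alternative fits. Plxna4 was not called and Plxna2 had no count.

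The 3 tested class 3 semaphorins, Sema3g, Sema3f and Sema3b, had log2 fold changes of -0.08, 0.25 and 0.49 and did not pass the test (0 also at an unadjusted p under 0.05, and 0 by DESeq2 and limma-voom). The remaining 9 membrane-bound members ran from -0.26 (Sema4g) to 0.15 (Sema6b) and did not pass it either. Sema4c, the second most abundant semaphorin, stood at 89.4, 88.0 and 83.1 CPM in the controls and 89.0, 88.4 and 87.9 CPM with D-serine (log2 fold change 0.03, SE 0.0468, then 0.03 length-removed and 0.06 centred). Its groups overlapped.

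Of the ephrins 7 of 8 were tested, and 2 changed (28.6%, beside 9.74% of all tested genes). These 2 were ephrin-Bs, which changed in opposite directions. Efnb3, the ligand that acts as a midline barrier in the spinal cord, stood at 10.9, 8.76 and 8.54 CPM in the controls and 6.35, 6.75 and 6.13 CPM with D-serine. Control replicate 1 was the highest and the groups lay well apart. The log2 fold change was -0.55 (SE 0.118, edgeR adjusted p = 0.0160), -0.58 length-removed (0.00211) and -0.55 centred (0.00410). It was lost without control replicate 1 (0.0744, adjusted, by edgeR), control replicate 2 (0.0581) or D-serine replicate 3 (0.0626).

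Efnb2, the ligand of Ephb4 and others, known for arterial identity (chromosome 8, 8617439 to 8660773, minus strand), was the member that rose. It stood at 4.28, 5.58 and 5.70 CPM in the controls and 7.11, 7.70 and 6.88 CPM with D-serine. The D-serine libraries lay above every control, with control replicate 1 lowest. Its log2 fold change was 0.47 (SE 0.131, edgeR adjusted p = 0.0395), 0.48 length-removed (0.0176) and 0.50 centred (0.0146). Left-out libraries took the call away in 5 of 6 fits, at adjusted p = 0.137, 0.0898 and 0.0620 without control replicates 1 to 3 and 0.0790 and 0.0822 without D-serine replicates 2 and 3, by edgeR. The replicate number as a block took it away too. Its level, 1.44 CPM per kb over all 6 libraries, was below that of Efnb3 at 2.46.

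The 5 ephrin-As, which signal to EphA receptors, all had a negative fold and none passed the test (0 by DESeq2 and limma-voom, and 3 at an unadjusted p under 0.05 by edgeR). Efna5, the most abundant, stood at 90.1, 91.2 and 89.5 CPM in the controls and 83.6, 82.6 and 83.9 CPM with D-serine, tight groups that did not overlap, with a log2 fold change of -0.12 (SE 0.0438, edgeR adjusted p = 0.108; -0.08 length-removed and -0.06 centred). Efna2 stood at 13.8, 15.1 and 17.3 CPM in the controls and 12.8, 14.0 and 12.2 CPM with D-serine. Its groups overlapped, and its log2 fold change of -0.25 (SE 0.0966, edgeR adjusted p = 0.116) was past the threshold length-removed (-0.30, 0.0333) and not centred (-0.27, 0.0550).

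Efna3 stood at 7.34, 6.28 and 6.42 CPM in the controls and 5.86, 5.28 and 5.98 CPM with D-serine, without overlap (log2 fold change -0.22, SE 0.119, edgeR adjusted p = 0.237, then -0.33 length-removed and -0.30 centred). Efna4 had the most negative fold of all members, on a level below 1 CPM in every library (log2 fold change -1.28, SE 0.496, edgeR adjusted p = 0.116, then -1.36 length-removed and -1.33 centred). Efna1 came to -0.14 (SE 0.161), -0.22 length-removed and -0.19 centred. None of these 3 passed in either form. Efna1, Efna3 and Efna4 lie in a row on chromosome 3 between 89075652 and 89141950 in the deposited coordinates, all on the minus strand. The 5 tested Eph receptors (Epha1, Epha8, Epha10, Ephb3 and Ephb4) had folds from -0.44 to -0.15, all negative, and none passed the test (1 at an unadjusted p under 0.05, 0 by DESeq2 and limma-voom). Epha1 shares 236 exonic bases with Zyx and Epha10 shares 79 with 1700125G02Rik, both on the opposite strand.

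**Figure D4:**
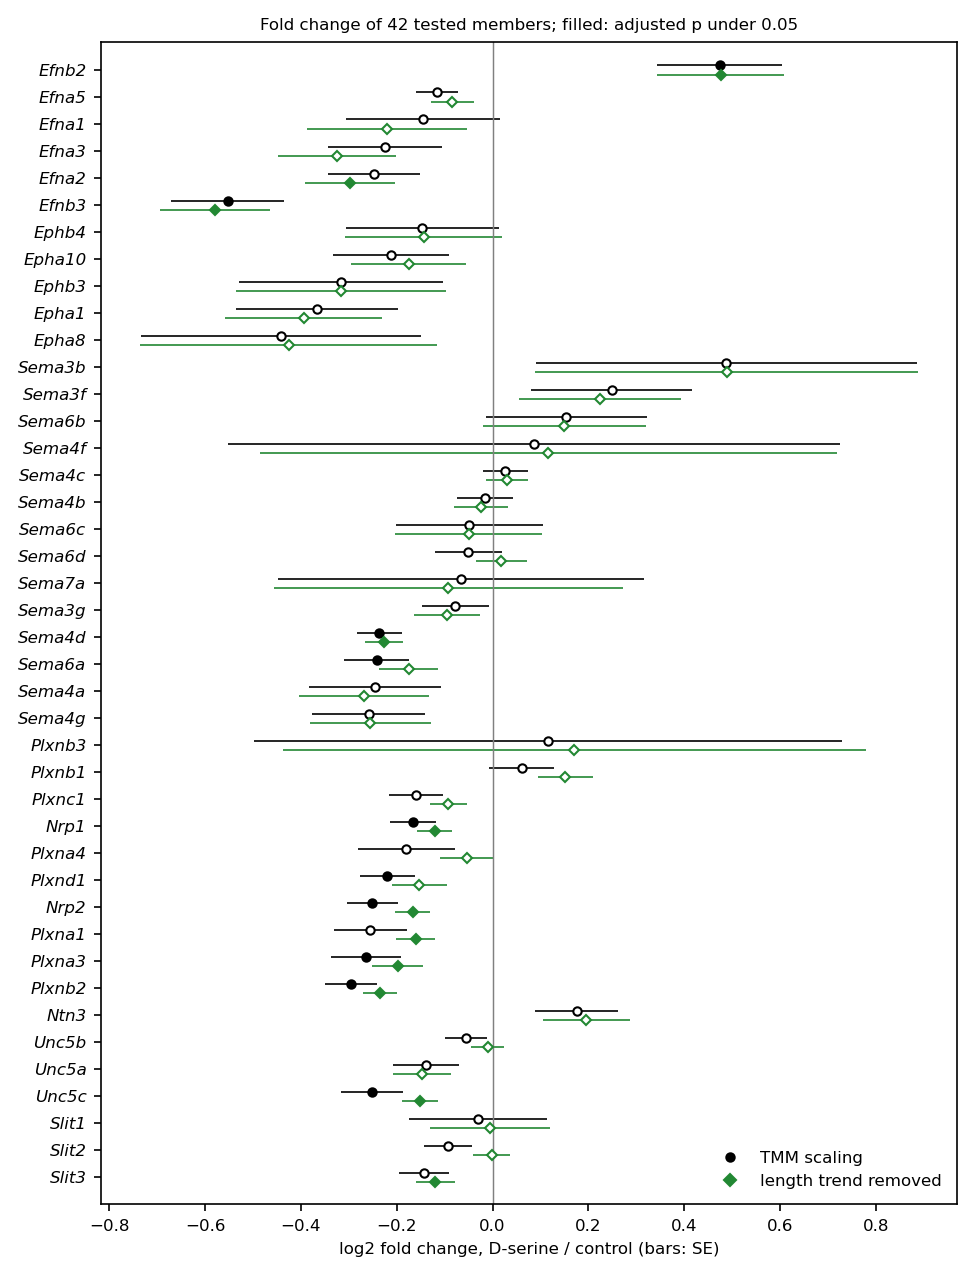
Log2 fold change of D-serine over control with its SE for 42 of the 43 tested genes, as scaled by TMM (black circles) and with the length trend removed as first run (green diamonds), filled where the adjusted p was under 0.05; Efna4, at -1.28, is left out. Most points lie below 0, and filled points for both forms of the fold are found in Efnb2, Efnb3, Sema4d, Plxnb2, Plxna3, Nrp1, Nrp2 and Unc5c.

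In the netrin system 1 of 4 tested genes changed, beside 9.74% of all tested genes. Unc5c, a netrin receptor for repulsion (chromosome 3, 141128528 to 141497888, plus strand), stood at 160, 157 and 148 CPM in the controls and 115, 142 and 132 CPM with D-serine. The groups did not overlap and D-serine replicate 1 was lowest. On the log2 scale the fold was -0.25 (SE 0.0655, edgeR adjusted p = 0.0317), -0.15 length-removed (0.00933) and -0.12 centred (0.0238), so the size moved by over 1.5 times and the call stayed. It was lost without any 1 control (adjusted p = 0.116, 0.118 and 0.0562 by edgeR) or D-serine replicate 3 (0.0784), and with the replicate number as a block.

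Unc5b, the most abundant member, stood at 262, 257 and 250 CPM in the controls and 236, 256 and 248 CPM with D-serine. The groups overlapped, with D-serine replicate 1 lowest, and the log2 fold change was -0.06 (SE 0.0443, edgeR adjusted p = 0.440), which came to -0.01 length-removed and turned to 0.02 centred. Unc5a stood at 37.9, 34.7 and 37.3 CPM in the controls and 30.5, 35.7 and 33.6 CPM with D-serine, also overlapping (log2 fold change -0.14, SE 0.0683, edgeR adjusted p = 0.200, then -0.15 length-removed and -0.12 centred). It shares 34 exonic bases with Hk3 on the opposite strand. Ntn3 stood at 9.85, 9.87 and 10.2 CPM in the controls and 10.8, 11.3 and 11.7 CPM with D-serine, without overlap (log2 fold change 0.18, SE 0.0867, edgeR adjusted p = 0.203, then 0.20 length-removed and 0.22 centred). It shares 89 exonic bases with Tbc1d24 on the same strand, so its count is uncertain.

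None of the 3 slits passed the test (0 by DESeq2 and limma-voom, and 1 at an unadjusted p under 0.05 by edgeR). Slit2 stood at 179, 178 and 181 CPM in the controls and 156, 178 and 171 CPM with D-serine (log2 fold change -0.09, SE 0.0499, edgeR adjusted p = 0.241). It came to -0.0015 length-removed and to 0.03 centred, the opposite sign. Slit3 stood at 115, 110 and 108 CPM in the controls and 94.9, 106 and 100 CPM with D-serine, without overlap (log2 fold change -0.14, SE 0.0519, edgeR adjusted p = 0.0950). It passed the threshold length-removed (-0.12, 0.0498) and not centred (-0.09, 0.123). Slit1 stood at 8.62, 8.20 and 7.44 CPM in the controls and 6.09, 8.11 and 9.51 CPM with D-serine, overlapping widely (log2 fold change -0.03, SE 0.144, edgeR adjusted p = 0.918, then -0.0047 length-removed and 0.02 centred).

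The signalling proteins below the receptors were read from a list of 62 genes (GTPases, their regulators, kinases and cytoskeletal effectors), of which 57 were tested. In it 3 rose and 7 fell, 17.5% of those tested beside 9.74% of all tested genes. The median log2 fold change was -0.07, beside 0.0053 over all tested genes. It came to -0.03 length-removed and -0.0028 centred, beside -0.0223 and 0.0040 over all tested genes. Cdc42, a small GTPase of filopodia, rose with a log2 fold change of 0.18, Cdk5, the kinase downstream of semaphorins, with 0.36, and Arhgef28, a guanine nucleotide exchange factor, with 0.19. The genes that fell were Vav2, an exchange factor downstream of Eph receptors (-0.26), Farp1, a Rac exchange factor (-0.23), Sipa1l1, which turns Rap GTPases off (-0.20), Itsn1, a scaffold and Cdc42 exchange factor (-0.20), Mical1, the plexin-bound oxidase that takes actin apart (-0.19), Enah, an actin regulator (-0.17), and Pitpna, a phosphatidylinositol transfer protein (-0.17). With the trend on length removed 3 were higher and 11 lower, and centred 4 and 7, beside 15.8% and 15.3% of all tested genes called. Itsn1 and Enah were past the threshold in neither form and turned in sign when centred. Sipa1l1 came to -0.12 length-removed (edgeR adjusted p = 0.0248) and -0.09 centred (0.0542, not past the threshold).

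Of these, 1 gene in each direction is given by library. Cdc42 stood at 329, 346 and 351 CPM in the controls and 405, 370 and 389 CPM with D-serine. Vav2 stood at 94.1, 84.6 and 91.8 CPM in the controls and 70.4, 78.0 and 76.8 CPM with D-serine. In both genes the groups did not overlap, and both passed in both length forms, Vav2 at -0.29 (edgeR adjusted p = 5.6e-04) and centred at -0.26 (0.00171), Cdc42 at 0.15 (0.0165) and centred at 0.18 (0.00293). Without any 1 control, or without D-serine replicate 3, none of the list was called (24, 17, 26 and 23 had an unadjusted p under 0.05, by edgeR). With all 6 libraries 28 of the 57 had such a p, and so had 3769 of all 13366 tested genes.

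A list of 40 other guidance cues and receptors held 23 tested genes, of which none rose and 2 fell, 8.70% beside 9.74% of all tested genes. The median of its log2 fold changes was -0.09, beside 0.0053 over all tested genes. It came to -0.04 length-removed and -0.02 centred, beside -0.0223 and 0.0040 over all tested genes. With the trend on length removed 0 were higher and 4 lower, and centred 1 and 2, beside 15.8% and 15.3% of all tested genes called. Ptch1, the hedgehog receptor, stood at 81.6, 82.0 and 80.9 CPM in the controls and 51.2, 69.0 and 69.3 CPM with D-serine, without overlap (log2 fold change -0.37, edgeR adjusted p = 0.0257). It passed length-removed (-0.37, 0.00106) and centred (-0.34, 0.00402), and its fold without D-serine replicate 1 was -0.24 (0.00239). Wnt5a, a repellent Wnt ligand, stood at 20.1, 22.7 and 21.1 CPM in the controls and 17.9, 17.0 and 18.7 CPM with D-serine, also without overlap (log2 fold change -0.25, edgeR adjusted p = 0.0490). It passed length-removed (-0.25, 0.0307) and not centred (-0.22, 0.0513), with limma-voom (0.0531), with upper quartile scaling (0.0760) or with library totals (0.0722), nor without D-serine replicate 2 (0.101) or 3 (0.0846). Without any 1 control neither was called (5, 5 and 6 of the list had an unadjusted p under 0.05, by edgeR). With all 6 libraries 6 of the 23 had such a p, and so had 3769 of all 13366 tested genes.

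**Figure D5:**
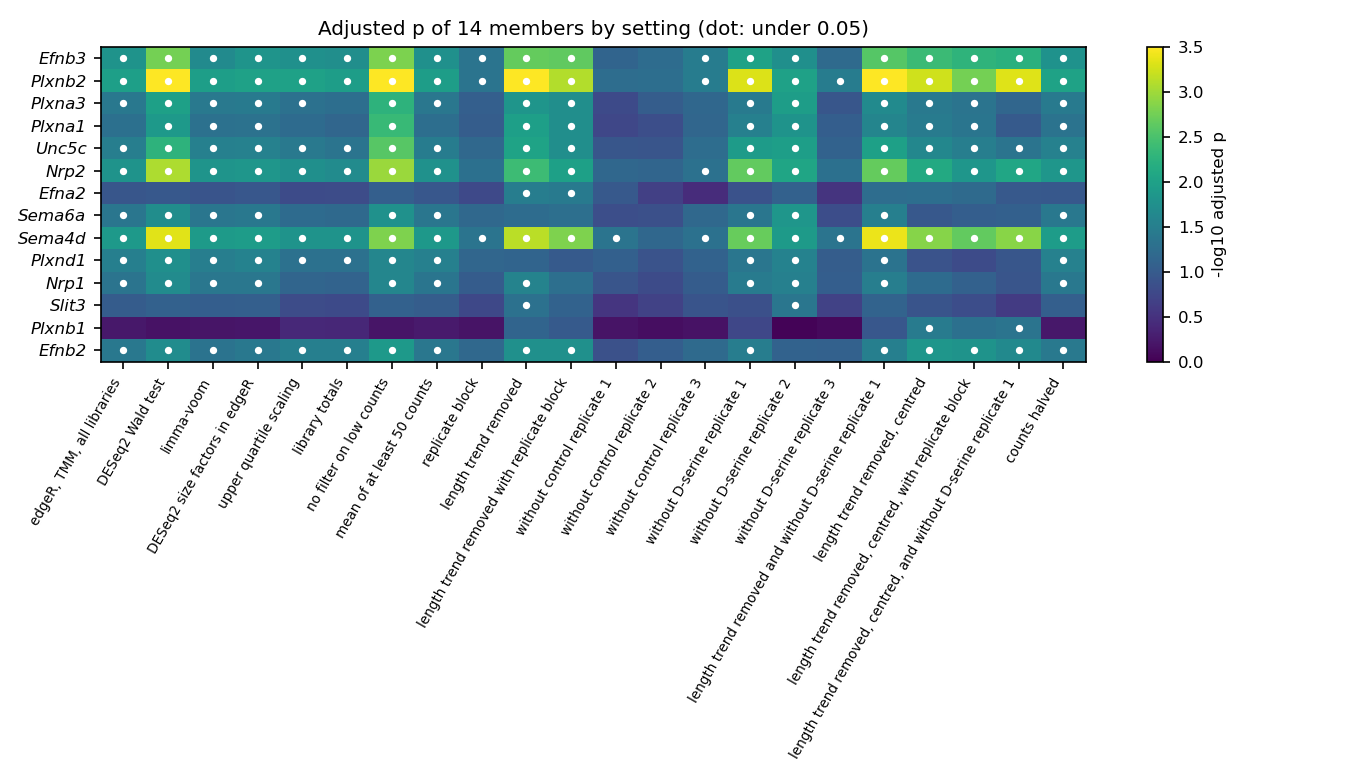
Adjusted p as -log10 of 14 guidance genes (rows) under the edgeR fit with TMM scaling and its 21 alternatives (columns), with a white dot where the adjusted p is under 0.05; the colour scale ends at 3.5. Sema4d has a dot in 20 of the 21 alternatives, while Plxnb1 has one in 2, and the columns that leave out control replicate 1, control replicate 2 or D-serine replicate 3 hold 1, 0 and 2 dots.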

How the data were processed

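Raw counts, the exonic length and the coordinates of each gene came from a single table that the authors deposited. Per the submitters' processing notes the reads were handled with bcl2fastq, Trim Galore, HISAT2 and featureCounts of Subread on GRCm38 (mm10), and DESeq2 is named. Versions and strand settings are not given in the sources used here. Starts in the table matched RefSeq GRCm38 for 1 of 69 members (within 1 base), so the build of the printed coordinates is not settled. Of counts from 1 to 10, 69.4% to 72.2% were even in each library, so the mates of a pair may have been counted separately, which would make the counting error larger than the counts show. In the gene names 27 symbols had become dates, none of them a member.

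Genes were filtered by filterByExpr, scaled by TMM and fitted over all 6 libraries with edgeR 4.0.16 (R 4.3.3), group as the 1 term, adjusted over 13366 genes; CPM use TMM-adjusted totals. Alternatives were DESeq2 1.42.0, limma-voom (limma 3.58.1), other scalings and filters, the replicate number as a block, each library left out, and each library's trend on log2 length (natural spline, 5 degrees of freedom) removed as an offset. Centring that trend, and halving the counts, were added after seeing the data. The fits were tested on simulated data. Deviations of same-numbered libraries had correlations of -0.07, 0.02 and -0.02, beside -0.08 to 0.09 for differently numbered ones. No shared effect was seen, which cannot show whether the libraries were paired. Named were the members past 0.05 as scaled or with the length trend removed in either form, the 3 most abundant per kb of each system, and of the pathway lists those past 0.05. A few other members are named by class. The level of 1 marker gene is not reported here. The members and lists were chosen with earlier results of these data known.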

Additional observations from a re-analysis of the deposited data

How the results depend on the processing

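Over 21 alternatives, the named members and pathway genes gave 672 fold changes. Of these 495 kept direction and side of the threshold, 144 lost the call, 18 gained it and 15 turned in sign. The 672 include named members that the edgeR fit with TMM scaling did not call. Those had no call to lose, so all 144 losses fell on the called genes, and the 495 overstate how steady the calls were. Members called stayed within 1.5 times the reported count, at 1 higher and 6 to 11 lower, with DESeq2, limma-voom, the other scalings and filters, the length trend removed as first run (alone, with the block or without D-serine replicate 1) and counts halved. In those fits 1261 to 2118 genes were called in all, fewest with limma-voom and most with the length trend removed. Centred, 2 members were higher, and 2 higher and 5 lower without D-serine replicate 1 (median log2 fold change -0.0787). With the replicate number as a block, 0 members were higher and 3 lower (Efnb3, Sema4d and Plxnb2, with 17 at an unadjusted p under 0.05 by edgeR). In that fit 0 signalling genes were higher and 0 lower (23 unadjusted) and 1 other cue was lower, while 298 genes were called in all. The labels do not say whether the numbers stand for a pairing. With 1 library left out, members higher ranged from 0 to 1, members lower from 0 to 11, their median from -0.19 to -0.10, signalling genes higher from 0 to 5 and lower from 0 to 11, and other cues higher from 0 to 1 and lower from 0 to 4. Other cues lower numbered 1 with limma-voom, upper quartile scaling or library totals. Signalling genes lower numbered 4 with library totals, 13 with no filter and 11 with the length trend removed, when 4 other cues were lower. Over all tested genes 412 of 13366, 987 of 17635 and 1417 of 13366 were lower in those fits, in that order. With that trend removed and without D-serine replicate 1, 5 signalling genes were higher and 12 lower, and 1 other cue was higher. In that fit 2107 of 13553 tested genes were called, 570 higher and 1537 lower. Centred, 1 other cue was higher. With the block as well, 5 signalling genes and 1 other cue were higher and 1 other cue was lower. Centred without D-serine replicate 1, 5 signalling genes and 1 other cue were higher. Over all tested genes those centred fits called 2043 of 13366, 1900 of 13366 and 1864 of 13553, in that order. Signs turned for Slit1 (0.0164 without control replicate 1, 0.127 without D-serine replicate 1, 0.121 with the length trend also removed), and centred for Unc5b (0.0160), Slit1 (0.0226), Slit2 (0.0250), Itsn1 (0.0143) and Enah (6.9e-05), centred with the block for Unc5b (0.0161), Slit1 (0.0125), Slit2 (0.0253) and Itsn1 (0.0102), and centred without D-serine replicate 1 for Unc5b (0.0135), Slit1 (0.158) and Slit2 (0.0148). Depth limits the 26 untested members, with at most 15 counts in a library. Where no value shows the cause of a change, the cause was not tested.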
